A study of Mus musculus with 69 samples.

Results

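The CCR2 axis was followed here as 5 genes, the chemokine ligands Ccl2, Ccl7, Ccl8 and Ccl12 and the receptor Ccr2. They were chosen by name, with earlier results of these data known. Their probes were found through the transcript identifiers in the scanner output, NM_011333 for Ccl2, NM_013654 for Ccl7, NM_021443 for Ccl8, NM_011331 for Ccl12 and NM_009915 for Ccr2. All 5 were measured and passed the filter on dim probes, among 17627 genes tested. The lung RNA of 69 female C57BL/6 mice had been hybridised one mouse per array, in Cy5, against Universal Mouse Reference RNA in Cy3, with no dye swap. The mice were 5 to 7 weeks old on arrival and were acclimatised for 1 to 3 weeks before a single intratracheal instillation. They received 18, 54 or 162 µg of NRCWE-001, a titanium dioxide nanoparticle with no added charge, or of NRCWE-002, its positively charged counterpart, or the vehicle alone. The particles were dispersed in water with 2% serum, while the titles of the control samples name water only. Lungs were taken on day 1 or day 28, with 5 mice in each of 13 groups and 4 in the day 28 vehicle group. RNA came from a small section of the whole lung, so fewer cells of a type and less RNA per cell cannot be told apart.

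CCR2 is a receptor for chemokines, small secreted proteins that guide leukocytes, and in mice it is carried mainly by Ly6C-high monocytes. Its best known ligand is CCL2, also called MCP-1, which is made by macrophages, epithelial cells, endothelium and fibroblasts under inflammatory stimuli. CCL7 and CCL12 are related monocyte attractants, CCL12 being a second mouse counterpart of human MCP-1. CCL8 is a further member of the family, which in mice acts through CCR8, and its action on CCR2 was not examined here. Binding of ligand to CCR2 draws monocytes out of bone marrow and blood into inflamed tissue, where they can become macrophages. The 4 ligand genes lie in one cluster of chemokine genes on mouse chromosome 11, in the order Ccl2, Ccl7, Ccl11, Ccl12, Ccl8, and Ccr2 lies on chromosome 9.

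RefSeq promoter sequence was at hand for 3 of the 5 genes. The windows are shown for reference. None was at hand for Ccl2 and Ccl7, and whether the motifs bear on the levels of these genes was not tested. Each holds the 250 bases before the annotated start on build GRCm38.p6, plus strand, at chr11:82101595-82101844 for Ccl12, chr11:82114935-82115184 for Ccl8 and chr9:124101933-124102182 for Ccr2. Capitals mark a TATAAA match.
Ccl12: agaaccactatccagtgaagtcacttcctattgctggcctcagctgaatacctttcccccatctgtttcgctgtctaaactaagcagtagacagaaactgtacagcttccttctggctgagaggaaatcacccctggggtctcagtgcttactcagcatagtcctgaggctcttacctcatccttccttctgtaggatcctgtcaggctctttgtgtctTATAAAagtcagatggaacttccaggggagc
Ccl8: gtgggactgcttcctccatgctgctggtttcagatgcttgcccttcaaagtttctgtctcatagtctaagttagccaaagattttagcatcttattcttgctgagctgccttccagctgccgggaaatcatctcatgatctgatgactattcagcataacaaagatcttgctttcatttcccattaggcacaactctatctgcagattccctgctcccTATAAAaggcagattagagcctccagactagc
Ccr2: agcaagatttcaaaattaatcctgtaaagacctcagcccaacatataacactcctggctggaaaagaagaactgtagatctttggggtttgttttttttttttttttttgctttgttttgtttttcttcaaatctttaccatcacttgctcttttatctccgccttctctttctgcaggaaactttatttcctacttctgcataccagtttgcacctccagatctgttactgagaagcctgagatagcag
Both strands were searched for the TATA box as TATAAA, the GC box as GGGCGG, the AP-1 site as TGANTCA, the STAT site as TTCNNNGAA, and for the core of the interferon-stimulated response element and the NF-kB consensus. No matches overlapped. Ccl12 held TATAAA from 31 to 26 bases before its start and Ccl8 from 32 to 27 bases before its start, while 12.4% of the 32851 promoter windows of the same length held it on either strand. None of the other motifs was found in the windows of these 3 genes. Their shares among all windows were 32.7% for the GC box, 6.75% for the AP-1 site, 7.02% for the STAT site, 2.98% for the interferon response core and 7.25% for the NF-kB consensus. A missing match says only that these letters are not in this window.

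All values are log2 ratios of lung to reference RNA after background correction and loess, so a level is relative to the reference, and only differences for one gene are compared. The sample channel was well above background for 61.4% to 87.8% of the spots of an array, and 0 spots were saturated. Lung identity was checked with markers: 5 of 5 alveolar type 2 genes, 5 of 5 endothelial genes and 4 of 4 measured airway genes were well above background on all 69 arrays. The 5 genes had 7 probes, of which 6 were well above background for lung RNA on every array and 1 of the 2 Ccr2 probes on 57 arrays. The reference channel was well above background for the 2 Ccr2 probes on only 8 and 11 arrays, so the Ccr2 ratio is set against a reference near background. The Ccl2 probe was spotted 10 times, with a median SD of 0.08 between repeat spots of an array on the log2 scale. Nothing in the labels says how mice were assigned to cages or days. The p-values of the reported fit rest on the spread between arrays of single mice. That spread also holds differences between slides, because slide was not a term of that fit.

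The first question was whether the ligands differed from vehicle one day after the highest dose. Ccl2 stood at -4.06, -4.25, -4.01, -4.46 and -4.21 in the 5 vehicle mice. After 162 µg of NRCWE-001 it stood at -2.26, -2.39, -1.38, -0.66 and -4.37, and after 162 µg of NRCWE-002 at -2.30, -1.62, -2.10, -0.69 and -4.26. In both exposed groups 4 of 5 mice lay above every vehicle mouse, and the fifth lay within the vehicle range. The mean log2 difference from vehicle was 1.98 ± 0.53 (SE) for NRCWE-001, which is 3.95-fold, and 2.00 ± 0.53 for NRCWE-002, which is 4.00-fold. With all 69 arrays sharing one estimate of the spread per gene, the limma adjusted p was 0.061 and 0.057, so neither passed 0.05.

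Ccl7, which attracts monocytes through CCR2 and other receptors, gave nearly the same picture as Ccl2 in the reported fit. It stood at -2.78, -3.23, -3.10, -3.65 and -3.34 in vehicle mice, at -1.01, -1.12, -0.41, 0.63 and -3.38 after 162 µg of NRCWE-001, and at -1.45, -0.52, -0.70, 0.15 and -2.86 after 162 µg of NRCWE-002. The low mouse of each exposed group was the same as for Ccl2. The log2 difference was 2.16 ± 0.56 for NRCWE-001 (limma adjusted p = 0.054) and 2.14 ± 0.56 for NRCWE-002 (limma adjusted p = 0.056). The 2 Ccl7 probes, taken alone, gave 2.34 and 1.98 for NRCWE-001 and 2.39 and 1.90 for NRCWE-002. The size depended on the processing. Under 14 other settings the Ccl7 difference ran from 2.12 to 3.19 for NRCWE-001 and from 2.07 to 3.21 for NRCWE-002. That of Ccl2 ran from 1.87 to 2.38 and from 1.91 to 2.26.

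Thus 0 of the 5 genes were called at 162 µg on day 1, where limma called 0.579% of all genes with NRCWE-001 and 0.596% with the charged particle. At an unadjusted p below 0.05, 3 of 5 genes were higher for NRCWE-001 and 4 of 5 for NRCWE-002, against 4.43% and 5.76% of all genes. Calls for Ccl2 and Ccl7 changed with the way slides entered the fit. With slide as a random block, limma called Ccl2 and Ccl7 for both particles, with adjusted p of 0.0058 and 0.0065 for NRCWE-001 and 0.027 and 0.028 for NRCWE-002, where 3.31% and 2.9% of genes were called. With slide as a fixed block both were called for NRCWE-001 (limma adjusted p = 0.019 and 0.022, 4.38% of genes) and neither for NRCWE-002 (limma adjusted p = 0.087 and 0.097, 1.96% of genes). Within single slides that held both groups, the Ccl2 difference was 1.80 to 2.62 on 3 slides for NRCWE-001 and 2.11 to 2.16 on 2 slides for NRCWE-002. The exposed mice there were replicates 1, 2 and 3 of NRCWE-001 and replicates 1 and 3 of NRCWE-002. Replicate 5, the low mouse of each group, was on none of these slides, so its value could not be compared within a slide. A fit of the day 1 arrays alone called 3 genes for NRCWE-001 (Ccl2, Ccl7 and Ccl12) and 4 for NRCWE-002 (Ccl2, Ccl7, Ccl8 and Ccl12), where 1.53% and 2.72% of genes were called. Single mice mattered as much: without replicate 5 the Ccl2 difference was 2.52 for both particles and limma called Ccl2 and Ccl7 (1.65% and 1.19% of genes called). Without replicate 4 it was 1.59 and 1.62, and neither gene was called (0.0794% and 0.187% of genes called).

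Ccl12 and Ccl8 had smaller mean differences from vehicle than Ccl2 and Ccl7. Ccl12 stood at -0.07, 0.17, 0.19, -0.14 and -0.07 in vehicle mice, at 1.01, 1.05, 1.66, 2.15 and -0.15 after 162 µg of NRCWE-001, and at 1.21, 1.65, 1.58, 1.52 and 0.26 after 162 µg of NRCWE-002. All 5 NRCWE-002 mice were above all vehicle mice, and 4 of 5 NRCWE-001 mice were. The log2 differences were 1.13 ± 0.41 for NRCWE-001 (limma adjusted p = 0.34) and 1.23 ± 0.41 for NRCWE-002 (limma adjusted p = 0.20).

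Ccl8 stood at 0.81, 0.49, 0.76, 0.29 and 0.95 in vehicle mice and at 2.03, 2.83, 2.37, 1.81 and 1.34 after 162 µg of NRCWE-002. Again all 5 exposed mice lay above the vehicle range, with a log2 difference of 1.42 ± 0.54 (limma adjusted p = 0.30). After 162 µg of NRCWE-001 it stood at 1.47, 1.13, 1.58, 2.67 and 0.27, with a log2 difference of 0.77 ± 0.54 (limma adjusted p = 0.95). Complete separation upwards from vehicle, as seen for 2 of the 5 genes in the NRCWE-002 group, held for 3.55% of all genes in that comparison, and with NRCWE-001 for 0 of the 5 and 1.99% of all genes. The exact two-sided permutation p of Ccl8 and Ccl12 with NRCWE-002 was 0.00794, which is the smallest that 5 against 5 mice can give, unadjusted and among 60 such tests of 5 genes in 12 comparisons.

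The receptor did not share the size of these differences. Ccr2 stood at 1.32, 1.49, 1.49, 1.34 and 1.08 in vehicle mice on day 1. After 162 µg of NRCWE-001 it stood at 1.73, 1.55, 1.58, 2.31 and 0.97, with 4 of 5 mice above the vehicle range, and after 162 µg of NRCWE-002 at 1.42, 1.56, 1.54, 1.15 and 1.07, which overlapped it. The log2 difference was 0.28 with a 95% interval of -0.11 to 0.67 for NRCWE-001 and 0.00 with an interval of -0.39 to 0.39 for NRCWE-002. Of 14 other settings, 1 gave a negative value with NRCWE-001 and 3 did so with NRCWE-002.

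**Figure D1:**
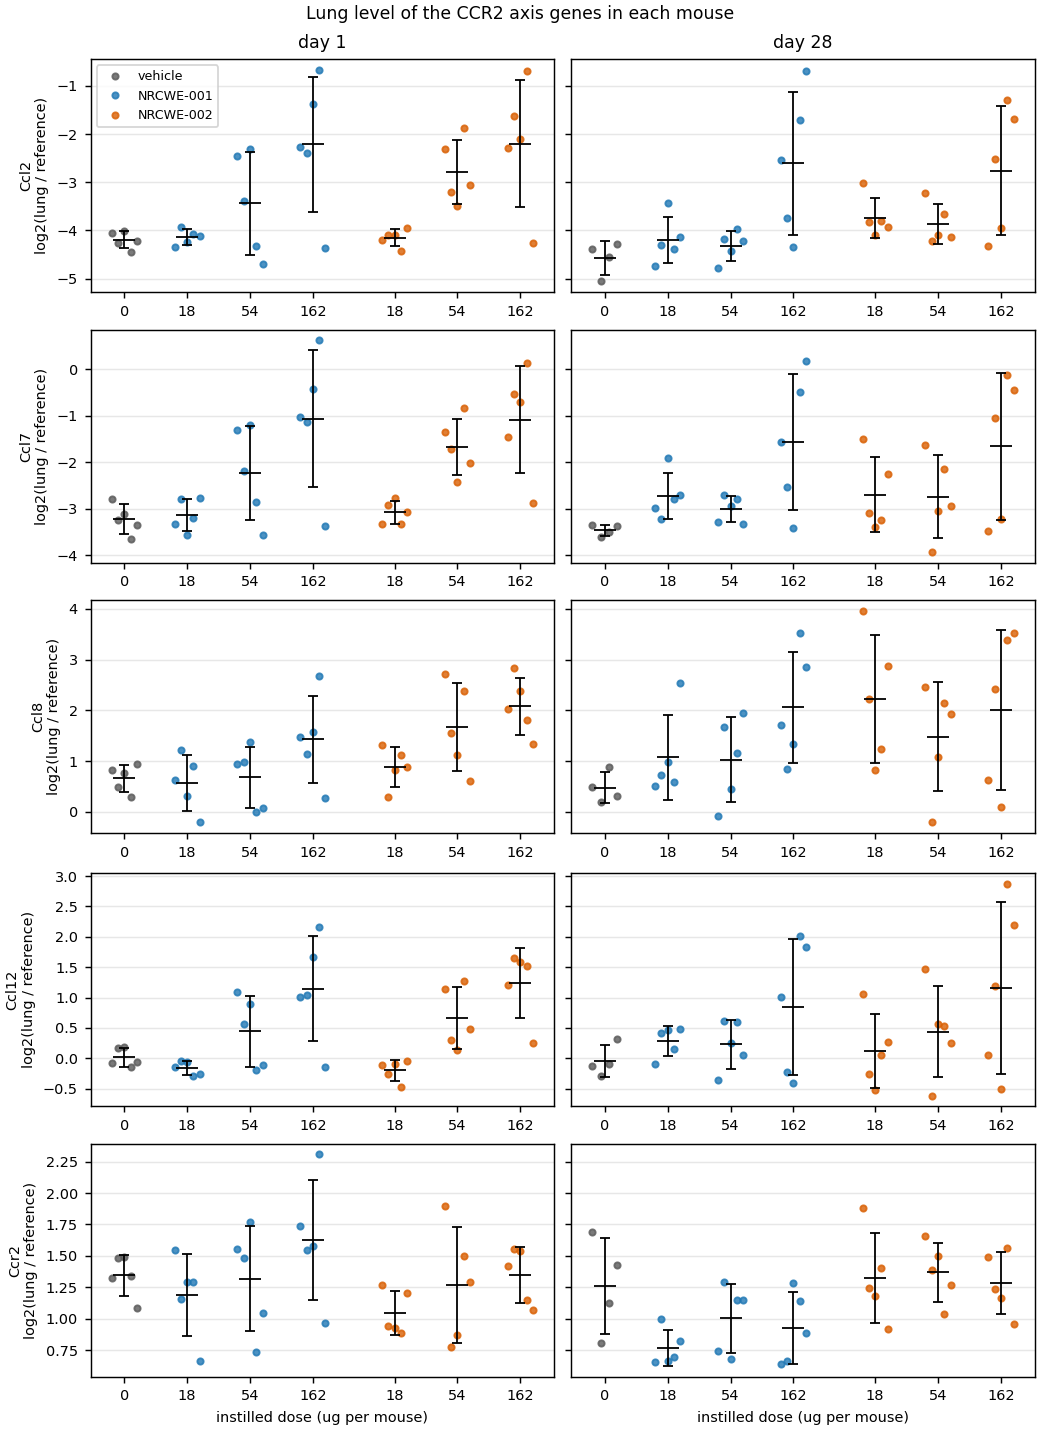
Level of the 5 genes in each mouse, as log2 of lung over reference RNA (vertical axis), against the instilled dose in µg (horizontal axis), on day 1 (left) and day 28 (right). Points are mice in grey for vehicle, blue for NRCWE-001 and orange for NRCWE-002, and black bars are the group mean ± SD. For Ccl2 on day 1 the vehicle values lie between -4.46 and -4.01, while the 162 µg groups spread from -4.37 up to -0.66.

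The dose series on day 1 was then described. At 18 µg the Ccl2 difference from vehicle was 0.06 ± 0.53 with NRCWE-001 and 0.05 ± 0.53 with NRCWE-002, and its group SD of 0.16 and 0.18 was close to the 0.18 of the vehicle group. At 54 µg of NRCWE-002 it stood at -2.32, -3.19, -3.50, -1.87 and -3.05, above every vehicle mouse, and the difference was 1.41 ± 0.53 (limma adjusted p = 0.64). Ccl7 was also above every vehicle mouse in that group, by 1.55 ± 0.56, and such separation held for 1.7% of all genes there. At 54 µg of NRCWE-001 Ccl2 stood at -2.46, -3.38, -2.31, -4.32 and -4.70, with 3 of 5 mice above the vehicle range, and the difference was 0.76 ± 0.53. Within the 3 slides that held both groups, those of these 3 mice, it was 1.60, 0.87 and 1.69. At 18 and 54 µg on day 1, 0 of 5 genes were called, where the share of all genes called was 0.0624% at 54 µg of NRCWE-002 and 0 in the other 3 comparisons.

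The moderated F-test over the 3 doses called Ccl2 for NRCWE-002 on day 1 (limma adjusted p = 0.046), and Ccl7 missed the threshold (limma adjusted p = 0.052). This is 1 of 5 genes, where 0.823% of all genes were called. For NRCWE-001 on day 1 none was called, with limma adjusted p of 0.097 for Ccl2 and 0.083 for Ccl7, and 0.698% of all genes were called. Comparing 162 with 18 µg, which uses no vehicle mouse, Ccl2 was higher by 1.96 ± 0.53 for NRCWE-002 (limma adjusted p = 0.042, 1.42% of genes called) and by 1.92 ± 0.53 for NRCWE-001 (limma adjusted p = 0.057, 0.851% of genes called). On day 28 neither the F-test (0.477% and 0 of genes called for NRCWE-001 and NRCWE-002) nor this contrast (0.942% and 0) called any of the 5. Neither Ccl2 call for NRCWE-002 held under every other setting. Of 20 fits that each left out 1 mouse, 3 called Ccl2 in the F-test, those without replicate 2 or 3 at 54 µg or replicate 5 at 162 µg, and 0.295% to 1.5% of genes were called. Of 10 such fits of the dose contrast, 1 called Ccl2, that without replicate 5 at 162 µg, and 0.176% to 2.51% of genes were called. With slide as a fixed block the limma adjusted p was 0.097 in the F-test, where 2.36% of genes were called, and 0.27 in the dose contrast, where the difference was 1.27 and 2.5% of genes were called. The same block called more genes of the axis for NRCWE-001: Ccl2, Ccl7 and Ccr2 in the F-test (limma adjusted p = 0.014, 0.015 and 0.013, 7.42% of genes called), and these and Ccl12 in the dose contrast (7.89% of genes called), with Ccr2 higher by 0.42.

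On day 28 the mean differences at 162 µg were of similar size, but the mice of a group lay far apart. Ccl2 stood at -4.37, -5.06, -4.55 and -4.28 in the 4 vehicle mice, at -2.54, -3.74, -4.35, -1.71 and -0.68 after 162 µg of NRCWE-001 and at -4.32, -2.51, -3.95, -1.30 and -1.69 after 162 µg of NRCWE-002. In each group 3 mice lay at -2.54 or above, 1 lay between these and the vehicle mice, and 1 lay within the vehicle range. The log2 difference was 1.96 ± 0.56 for NRCWE-001 (limma adjusted p = 0.19) and 1.81 ± 0.56 for NRCWE-002 (limma adjusted p = 0.49).

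Ccl7 followed the same mice on day 28. It stood at -3.35, -3.61, -3.51 and -3.37 in vehicle mice, at -1.56, -2.53, -3.40, -0.48 and 0.18 after NRCWE-001 and at -3.47, -1.04, -3.21, -0.12 and -0.45 after NRCWE-002. The differences were 1.90 ± 0.60 and 1.80 ± 0.60 (limma adjusted p = 0.25 and 0.53). Thus 0 of 5 genes were called at 162 µg on day 28, where limma called 0.0454% of all genes with NRCWE-001 and 0.00567% with NRCWE-002. Of the 5 genes, 4 had an unadjusted p below 0.05 with each particle, against 3.94% and 2.97% of all genes in the higher direction. Without replicate 3, limma called Ccl2 for NRCWE-001 (adjusted p = 0.037, difference 2.40, 0.482% of genes called), and without replicate 5 the difference was 1.48 and no gene of the array was called.

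For NRCWE-002 on day 28, few slides allowed a direct comparison with vehicle. Only 2 slides held both a vehicle mouse and a 162 µg NRCWE-002 mouse, replicates 1 and 3, and within them the Ccl2 differences were 0.05 and 0.33. These 2 mice had the lowest Ccl2 values of their group. The 3 mice with high values were on slides that held no vehicle mouse of that day, so their values could not be tested within slides. In all 14 other settings, slide blocks among them, the differences of the 4 ligands with NRCWE-002 lay between 1.11 and 2.74. With slide as a fixed block the limma adjusted p of Ccl2 with NRCWE-002 was 0.46, against 0.49 without it. For NRCWE-001, 1 slide held both groups and gave 2.52, and with slide as a fixed block the Ccl8 difference was 0.90 (limma adjusted p = 1.00) and that of Ccr2 was -0.05. Heart muscle markers were also higher in the NRCWE-002 group, with a mean over 5 genes of 2.53 to 4.16 against 0.62 to 3.22 in vehicle mice. All 5 were above background on every array and 0 of 5 were called, and their part in the result was not tested. Their excess over vehicle was not particular to this group. On day 28 all 5 also had positive differences at 18 and 54 µg of both particles. At 162 µg of NRCWE-001 on that day they lay between -0.26 and 0.49.

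Ccl12 on day 28 stood between -0.30 and 0.32 in vehicle mice, between -0.41 and 2.01 after 162 µg of NRCWE-001 and between -0.51 and 2.87 after 162 µg of NRCWE-002. The differences were 0.89 ± 0.44 and 1.21 ± 0.44 (limma adjusted p = 0.56 and 0.61). Ccl8 stood between 0.19 and 0.89 in vehicle mice and between 0.10 and 3.53 in the 2 groups at 162 µg, with differences of 1.59 ± 0.58 for NRCWE-001 and 1.54 ± 0.58 for NRCWE-002 (limma adjusted p = 0.34 and 0.63).

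Ccl8 had its highest group mean at the lowest dose of NRCWE-002 on day 28. After 18 µg of NRCWE-002 it stood at 3.96, 2.22, 0.83, 1.24 and 2.88, with 4 of 5 mice above all vehicle mice, and the difference of 1.76 ± 0.58 had an unadjusted p of 0.0034 and a limma adjusted p of 0.71. Within the 2 slides that held both groups it was 3.47 and 0.52. The mean over the 5 heart markers was also higher in this group, at 1.37 to 4.29 against 0.62 to 3.22 in vehicle mice, with 0 of 5 called, and their part in the Ccl8 value was not tested. No gene of the array was called in that comparison, while 6.07% had an unadjusted p below 0.05. The other ligands at 18 µg of NRCWE-002 differed from vehicle by 0.83 ± 0.56 for Ccl2, 0.77 ± 0.60 for Ccl7 and 0.17 ± 0.44 for Ccl12. At 18 and 54 µg on day 28 complete upward separation from vehicle was seen for Ccl7 with NRCWE-001 at both doses, where it held for 0.964% and 0.584% of all genes, and for Ccl2 with NRCWE-002 at both doses, where it held for 0.647% and 0.681%. None of these differences passed the limma test, which called 0.193% of all genes at 18 µg of NRCWE-001 and 0 in the other 3 comparisons.

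Ccr2 on day 28 lay below the vehicle mean at all 3 doses of NRCWE-001, by -0.50 ± 0.21 at 18 µg, -0.26 ± 0.21 at 54 µg and -0.34 ± 0.21 at 162 µg. The 18 µg value had an unadjusted p of 0.020 and a limma adjusted p of 0.48, and within the 2 slides that held both groups it was -0.15 and -0.13. The 2 Ccr2 probes disagreed in size there, with -0.78 and -0.21. With NRCWE-002 the differences were 0.06, 0.11 and 0.02 at the 3 doses, each with an SE of 0.21, and at 162 µg the sign was negative in 5 of 14 other settings.

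**Figure D2:**
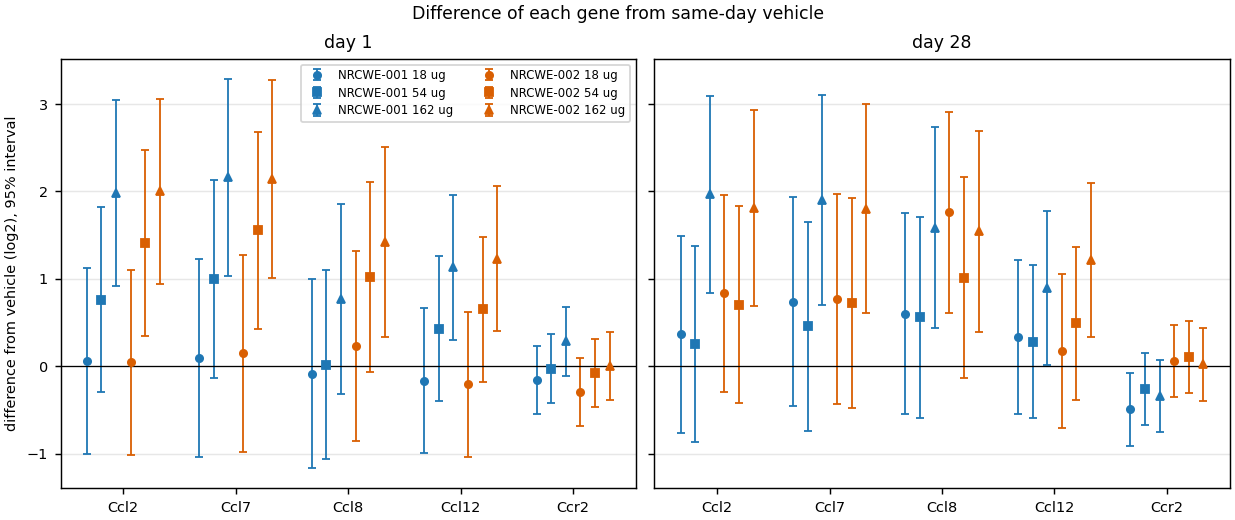
Difference of each gene from the vehicle mice of the same day on the log2 scale (vertical axis), on day 1 (left) and day 28 (right). Symbols are estimates for 18 µg (circle), 54 µg (square) and 162 µg (triangle), blue for NRCWE-001 and orange for NRCWE-002, with 95% intervals from the limma fit before any adjustment. The triangles of Ccl2 and Ccl7 lie between 1.80 and 2.16, and those of Ccr2 between -0.34 and 0.28.

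Over the 14 groups the mean of Ccl2 ran from -4.57 in vehicle mice of day 28 to -2.20 at 162 µg of NRCWE-002 on day 1. From the lowest upwards, the order was vehicle day 28, NRCWE-001 54 µg day 28, NRCWE-001 18 µg day 28, vehicle day 1, NRCWE-002 18 µg day 1, NRCWE-001 18 µg day 1, NRCWE-002 54 µg day 28, NRCWE-002 18 µg day 28, NRCWE-001 54 µg day 1, NRCWE-002 54 µg day 1, and then the 162 µg groups in the order NRCWE-002 day 28, NRCWE-001 day 28, NRCWE-001 day 1 and NRCWE-002 day 1. The group means ran from -3.46 to -1.06 for Ccl7, from 0.47 to 2.23 for Ccl8, from -0.19 to 1.24 for Ccl12 and from 0.77 to 1.63 for Ccr2. For Ccl2, Ccl7 and Ccl12 the 4 highest groups were those at 162 µg. For every gene, 0 of 13 neighbouring pairs in the order of means were further apart than the larger of their SDs. Sorting places close means side by side, so this count does not test whether groups differ. In vehicle mice, day 28 minus day 1 was -0.37 ± 0.56 for Ccl2, -0.24 ± 0.60 for Ccl7, -0.19 ± 0.58 for Ccl8, -0.06 ± 0.44 for Ccl12 and -0.08 ± 0.21 for Ccr2, and 0 of 5 passed the test, as did 0 of all genes.

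The next question was whether the charged particle differed from the uncharged one. The 2 particles were compared at the same dose and day in 30 tests, 5 genes at 3 doses on 2 days, and 0 of 5 genes were called in any of the 6 comparisons, where limma called 0.13% of all genes at 54 µg on day 1, 0.119% at 18 µg and 0.0284% at 54 µg on day 28, and 0 in the other 3. At 162 µg on day 1, NRCWE-002 minus NRCWE-001 was 0.02 for Ccl2 with a 95% interval of -1.04 to 1.08, and -0.02 for Ccl7 with an interval of -1.15 to 1.11. These intervals still allow a difference of about 2-fold either way, so the 2 particles are not shown to act alike. For Ccl8 the difference was 0.65 with an interval of -0.43 to 1.74, for Ccl12 0.10 with -0.73 to 0.93 and for Ccr2 -0.28 with -0.67 to 0.11.

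At 54 µg on day 1 all 4 ligands had a higher mean with NRCWE-002, by 0.65 for Ccl2, 0.56 for Ccl7, 1.00 for Ccl8 and 0.22 for Ccl12, and every 95% interval included 0. On day 28 at 162 µg the differences were -0.15 for Ccl2, -0.10 for Ccl7, -0.04 for Ccl8, 0.32 for Ccl12 and 0.36 for Ccr2, and all intervals again included 0. At 18 µg on day 28 the interval left out 0 for Ccl8 (1.16, from 0.07 to 2.24, limma adjusted p = 0.52) and for Ccr2 (0.56, from 0.17 to 0.95, limma adjusted p = 0.33). With slide as a fixed block the limma adjusted p of that Ccr2 difference was 0.94.

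**Figure D3:**
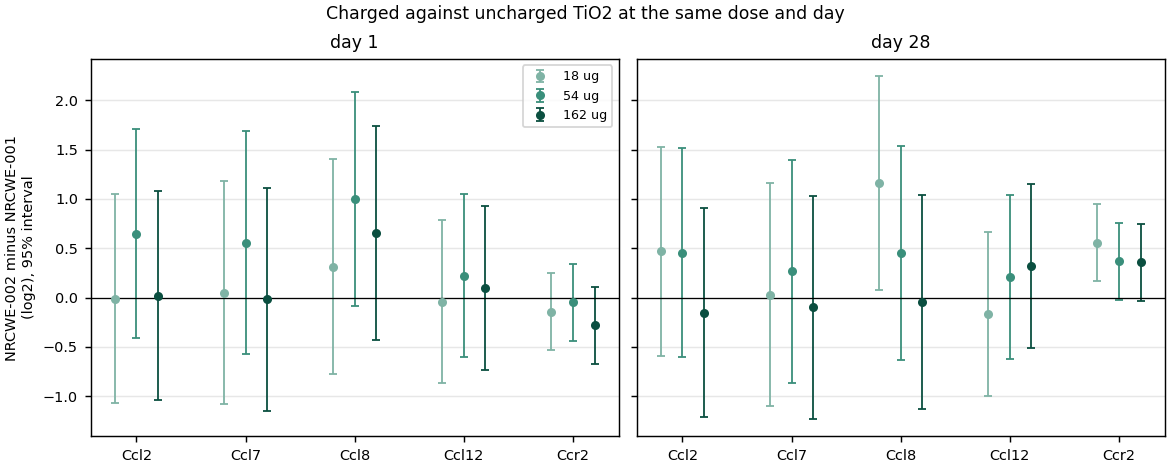
NRCWE-002 minus NRCWE-001 on the log2 scale (vertical axis) for each gene at 18, 54 and 162 µg (light to dark green), on day 1 (left) and day 28 (right), with 95% intervals from the limma fit before any adjustment. Of the 30 intervals shown, those of Ccl8 and Ccr2 at 18 µg on day 28 leave out 0.

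The change from day 1 to day 28 was tested as the 162 µg difference on day 28 minus that on day 1. For NRCWE-001 it was -0.02 ± 0.77 for Ccl2, -0.26 ± 0.82 for Ccl7, 0.82 ± 0.79 for Ccl8, -0.24 ± 0.60 for Ccl12 and -0.62 ± 0.28 for Ccr2. For NRCWE-002 it was -0.19 ± 0.77, -0.34 ± 0.82, 0.12 ± 0.79, -0.02 ± 0.60 and 0.02 ± 0.28. None of the 10 passed the limma test, and 0 genes of the whole array did in either comparison. The unadjusted p of Ccr2 with NRCWE-001 was 0.033.

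Mouse by mouse, the levels of Ccl2, Ccl7 and Ccl12 ran closely together. Over the 69 arrays the Pearson correlation was 0.97 for Ccl2 with Ccl7, 0.90 for Ccl2 with Ccl12 and 0.92 for Ccl7 with Ccl12. Ccl8 correlated less with them, at 0.69 to 0.77, and Ccr2 with the 4 ligands at 0.32 to 0.41. These points share slides and dose groups. After removal of group means and slides the values were 0.97, 0.88 and 0.92 for the first 3 pairs. In the 29 mice given vehicle or 18 µg these 3 pairs correlated less closely, at 0.76 for Ccl2 with Ccl7, 0.55 for Ccl2 with Ccl12 and 0.67 for Ccl7 with Ccl12.

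**Figure D4:**
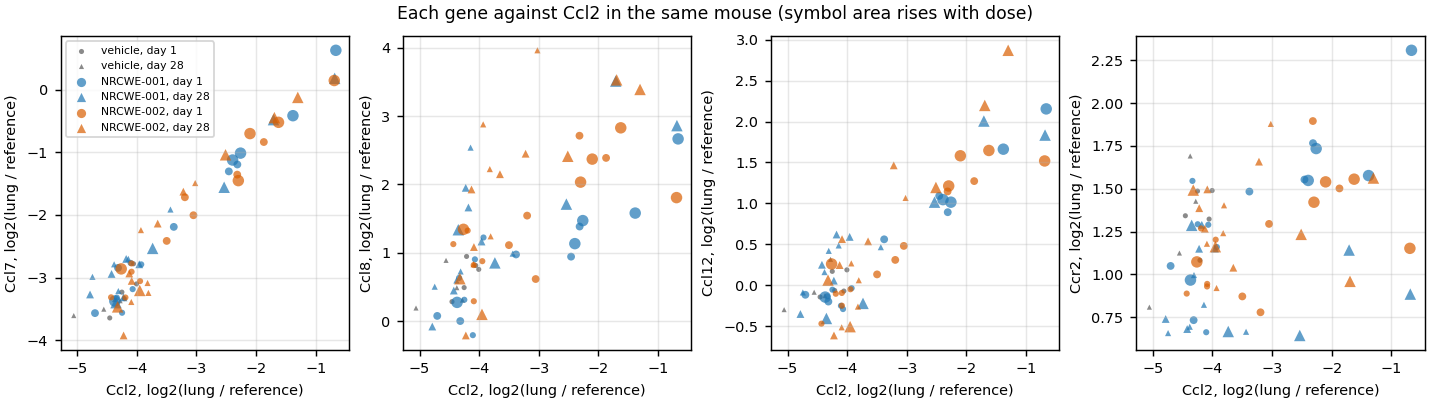
Each of the other 4 genes (vertical axes) against Ccl2 (horizontal axes) in the same mouse, both as log2 of lung over reference RNA. Circles are day 1, triangles day 28, colours mark vehicle (grey), NRCWE-001 (blue) and NRCWE-002 (orange), and symbols grow with dose. Ccl7 and Ccl12 form a narrow band with Ccl2 (r = 0.97 and 0.90 over 69 mice), and Ccr2 a loose cloud (r = 0.41).

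The genes whose levels were most like each member across the 69 arrays were listed by Pearson correlation. For Ccl2 they were Ccl7 (0.97), Ccl3 (0.94), Ccl4 (0.93), Nfkbie (0.90) and Cxcl10 (0.90), and for Ccl7 they were Ccl2 (0.97), Ccl12 (0.92), Ccl3 (0.91), Cxcl5 (0.91) and Cxcl3 (0.90). For Ccl12 they were Cxcl10 (0.92), Ccl7 (0.92), Ccl2 (0.90), Ly6f (0.89) and Il18bp (0.89). Ccl8 had another set, Gatm (0.86), Aif1 (0.82), Ccl9 (0.81), Slc26a4 (0.81) and Lap3 (0.80). For Ccr2 they were Car8 (0.80), Plbd1 (0.80), Igsf5 (0.78), Slc39a8 (0.78) and Ppp1r3d (0.78).

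The mice that were low for Ccl2 were also described by other inflammatory genes. On day 1, Cxcl5, a chemokine for neutrophils, stood between -3.36 and -2.90 in vehicle mice. After 162 µg it stood at -3.45 in replicate 5 of the NRCWE-001 group and at -1.53 in replicate 5 of the NRCWE-002 group, while the other 4 mice of each group lay at 0.10 or above. Il1b, which encodes interleukin 1 beta, stood between 1.09 and 1.83 in vehicle mice, and at 1.85 and 2.02 in replicate 5 of the NRCWE-001 and NRCWE-002 groups, below their other 4 mice.

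Genes around the axis were counted at 162 µg from lists of known function, and all listed values are differences from vehicle. The counts are to be read beside the share of all genes called, which was 0.579% with NRCWE-001 and 0.596% with NRCWE-002 on day 1, 0.0454% and 0.00567% on day 28, and with slide as a fixed block 4.38% and 1.96% on day 1. Genes named below only for a call under that block were named after their values were seen. Of 6 measured genes for related chemokines and receptors, 0 were called in any of the 4 comparisons, and their medians lay between 0.07 and 0.12. Only 3 of these 6 were above background on every array. Of the 3 scavenging receptors, which bind and clear chemokines, 0 were called. Of 11 measured signalling genes downstream of CCR2 and 11 adhesion genes that leukocytes use to leave the blood, 0 were called in any of the 4. Under the slide block 2 of the adhesion genes, Icam1 and Itgam, were called higher with NRCWE-001 on day 1.

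Among 14 measured upstream regulators of Ccl2, 1 was called for NRCWE-001 on day 1 and 2 for NRCWE-002, all higher. Of the 14, 9 were above background on every array. Il1b rose by 1.62 ± 0.36 with NRCWE-001 (limma adjusted p = 0.015) and by 1.67 ± 0.36 with NRCWE-002 (limma adjusted p = 0.011). Nfkbia, an inhibitor and target of NF-kB, rose by 0.70 ± 0.18 with NRCWE-002 (limma adjusted p = 0.037, and 0.16 with slide as a fixed block). Csf1, a growth factor of macrophages, was called by the F-test for NRCWE-001 on day 1 (limma adjusted p = 0.019). On day 28 0 of the 14 were called. In the fit with that block 5 of the 14 were called with NRCWE-001 on day 1, all higher (Il1b, Il6, Csf1, Csf2 and Myd88), and 1 with NRCWE-002 (Il1b).

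Other chemokine families stood as follows. Above background on every array were 1 of the 5 chemokines for neutrophils, 1 of the 2 measured CXCR3 ligands and all 5 macrophage CC chemokines. Of 5 chemokines for neutrophils, Cxcl5 rose by 3.49 ± 0.78 and Cxcl3 by 0.85 ± 0.19 with NRCWE-002 on day 1 (limma adjusted p = 0.017 and 0.019, and 0.016 and 0.068 with slide as a fixed block), and with NRCWE-001 none of the 5 was called against vehicle, while the F-test called Cxcl5 (limma adjusted p = 0.0498, difference 2.93 at 162 µg). With NRCWE-001, 3 of the 5 were called higher once slide was a fixed block, Cxcl1, Cxcl3 and Cxcl5 (limma adjusted p = 0.030, 0.014 and 0.0079). Of 5 inflammatory CC chemokines of macrophages, 0 were called against vehicle, and Ccl4 was called by the F-test for NRCWE-001 on day 1 (limma adjusted p = 0.021). The fixed slide block called 4 of the 5 with NRCWE-001 on day 1, Ccl3, Ccl4 and Ccl9 higher (limma adjusted p = 0.023, 0.042 and 0.016) and Ccl5 lower (limma adjusted p = 0.021), and without the block Ccl5 differed by -0.75 ± 0.21 with NRCWE-001 and -0.29 ± 0.21 with NRCWE-002. The 2 measured CXCR3 ligands were not called, and Cxcl10, which was among the genes most like Ccl2 and Ccl12, differed by 1.83 and 1.54 on day 1 and by 2.06 and 2.05 on day 28. The median difference of the 5 CCR2 axis genes was 1.13 and 1.42 on day 1 and 1.59 and 1.54 on day 28 for NRCWE-001 and NRCWE-002, against medians of all genes between -0.01 and 0.01. Because the 5 genes were chosen with earlier results of these data known, the contrast with all genes is a description and not a test. The medians of the macrophage CC list were 1.14 and 1.10 on day 1, where Ccl5 was negative, and 1.04 and 0.78 on day 28.

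**Figure D5:**
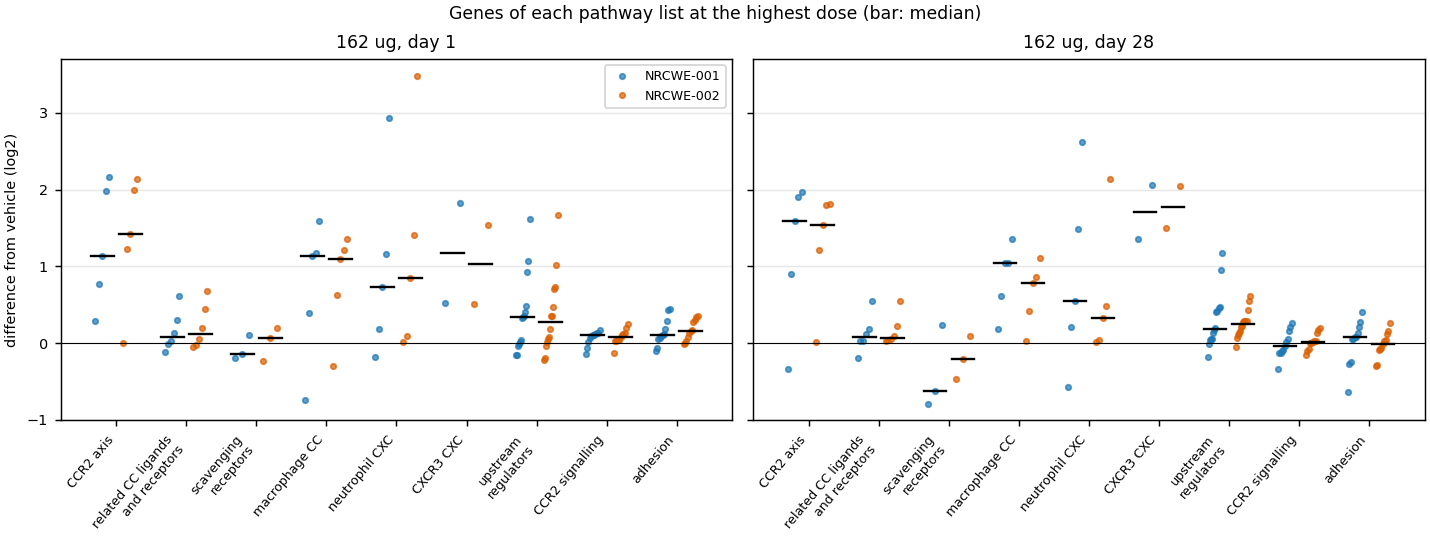
Difference from vehicle on the log2 scale (vertical axis) for each gene of 9 lists (horizontal axis) at 162 µg, on day 1 (left) and day 28 (right). Points are genes, blue for NRCWE-001 and orange for NRCWE-002, and black bars are list medians. The signalling and adhesion lists lie near 0, and the ligands of the CCR2 axis lie between 0.77 and 2.16.

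Markers of the cells that carry or respond to the axis were described beside these values. Of 10 markers of Ly6C-high monocytes, all had positive differences at 162 µg on day 1, with medians of 0.34 with NRCWE-001 and 0.35 with NRCWE-002, and 9 of the 10 were above background on every array. The mean over these 10 markers was 0.65 to 1.42 and 0.93 to 1.33 in the 2 groups, against 0.51 to 0.73 in vehicle mice. Only Cd14, the lipopolysaccharide co-receptor of monocytes and macrophages, was called, at 1.33 ± 0.34 and 1.58 ± 0.34 (limma adjusted p = 0.049 and 0.011). On day 28 the medians were 0.21 and 0.16, and 0 were called. Under the fixed slide block 3 of the 10 were called higher with NRCWE-001 on day 1, Cd14, Fn1 and S100a4.

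Of 7 measured neutrophil markers, Csf3r and Cxcr2, receptors of neutrophils, were called for NRCWE-001 on day 1, at 0.80 ± 0.19 and 0.69 ± 0.16 (limma adjusted p = 0.027 and 0.020). Under that block 4 of the 7 were called higher, these and S100a8 and Mmp9. Of 7 alveolar macrophage markers, Siglecf was called lower for NRCWE-001 on day 1, at -0.92 ± 0.24 (limma adjusted p = 0.0498), and the F-test called it for NRCWE-002 (limma adjusted p = 0.044). Siglecf and Pparg, under the fixed slide block, were called lower with NRCWE-001 and Car4 higher with NRCWE-002 on day 1. Of 6 markers of patrolling monocytes, Nr4a1, a transcription factor also induced early in many cells, was called for NRCWE-001 on day 28, at 2.06 ± 0.43 (limma adjusted p = 0.030), and the adjusted p was 0.73 with slide as a fixed block. Of 7 interstitial macrophage markers 0 were called, and their median was 0.54 and 0.61 on day 28. Of 6 dendritic cell markers, 3 were above background on every array. Clec9a, 1 of the 6, was called by the F-test for NRCWE-001 on day 28, with -0.31 ± 0.07 at 18 µg (limma adjusted p = 0.042). Without the block no T and NK cell, B cell, fibroblast or erythroid marker was called. How far any of these cells contributed to the ligand values was not tested.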

How the data were processed

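Total lung RNA of 69 mice was hybridised by the authors to 2-colour Agilent arrays, 1 mouse per array. The deposited scanner files held the median intensity and local background of each spot in both channels, read with Agilent Feature Extraction 11.0.1.1 and not normalized. The authors' deposited table held log2 ratios of sample over reference after LOWESS, with column medians of -0.06 to -0.003. The scanner intensities gave the values reported, and that table was an alternative.

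Background was corrected with normexp (offset 50), leaving out of the fit spots whose background lay over 10 median absolute deviations away, and arrays were normalized by loess (limma 3.58.1, R 4.3.3). Control and outlier spots had weight 0, and repeat spots and probes of a gene were summarised by the median. Probes had to be well above background for lung RNA on 4 or more arrays. Of 41174 probes, 27479 (66.7%) matched a RefSeq symbol by accession, and 17627 genes were tested. Symbols and promoters came from RefSeq tables of GRCm38.p6, while the array annotation follows another build, so no probe position is given.

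Means of the 14 groups were fitted to all 69 arrays in limma, with Benjamini-Hochberg adjustment over all genes in each comparison and a threshold of 0.05. Groups came from the labels, and replicate numbers follow accession order and pair nothing. The arrays lay on 18 slides scanned on 12 days, and values of one slide correlated at 0.47 after the group means were removed. The number of arrays, the slides and, for Ccr2, a reference near background limit the precision. On simulated data for 162 µg of NRCWE-001 on day 1 (17627 genes, 200 of them changed), 70.1%, 91% and 98.5% of changes of 0.5, 1 and 2 on the log2 scale were recovered, and 7.49% of calls were false. The shares recovered are over all changed genes and do not give the chance of a call for Ccl2 or Ccl7. In the real comparison Ccl2 differed by 1.98 ± 0.53 and Ccl7 by 2.16 ± 0.56, and neither was called.

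The 5 genes and the gene lists were chosen with earlier results of these data known. Outside the 5, the text names genes called in the F-test or at 162 µg, up to 4 per list and day, and the 5 genes most correlated with each member. Alternatives changed the background correction, normalization, dim-probe filter, probe summary, blocks for slide or scan day, moderation, the arrays in the fit, and each replicate left out. The sample channel alone, single probes and exact permutation tests were added after seeing the data.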

Additional observations from a re-analysis of the deposited data

Results flagged for a closer look

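In each of 70 sets of 4 or 5 mice (5 genes in 14 groups), the highest or lowest mouse was compared with the rest of its set, and 2 mice stood apart by Dixon's criterion. Chance gives about 1 in 20 such sets. Ccl2 stood at -3.02 in replicate 1 of the 18 µg NRCWE-002 group on day 28, against -4.09 to -3.81 in its other 4 mice. Ccl8 stood at 2.54 in replicate 5 of the 18 µg NRCWE-001 group on day 28, against 0.50 to 0.99 in its other 4 mice.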

How the results depend on the processing

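Each of 60 differences from vehicle (5 genes, 12 comparisons) was recomputed under 14 alternatives and without each replicate. Of 1410 recomputed values, 67 had another sign, 40 of them for Ccr2, and 0 of those were called; 32 passed the threshold that the reported value had missed. The number of the 5 genes called moved as follows. In the F-test for NRCWE-001 on day 1 it was 0 as reported, 1 with all spots in the normexp fit, 3 with slide as a fixed or random block or scan day as a block, 2 with day 1 arrays only, and 0 to 2 without single replicates. In the F-test for NRCWE-002 on day 1 it was 1 as reported, 0 with the authors' table, all spots in the normexp fit, slide as a fixed block or no moderation, 2 without background correction, with median centring, with probes above background on at least 35 arrays, with slide as a random block or with the sample channel alone, 3 with day 1 arrays only, and 0 to 2 without single replicates. On day 1 after 162 µg of NRCWE-001 it was 0 as reported, 1 with probes above background on at least 35 arrays, 2 with all spots in the normexp fit, either slide block, the scan day block or the sample channel alone, 3 with day 1 arrays only, and 0 to 2 without single replicates. On day 1 after 162 µg of NRCWE-002 it was 0 as reported, 1 without background correction, 2 with probes above background on at least 35 arrays, slide as a random block, the scan day block or the sample channel alone, 4 with day 1 arrays only, and 0 to 2 without single replicates. For 162 minus 18 µg of NRCWE-001 on day 1 it was 0 as reported, 2 with all spots in the normexp fit, probes above background on at least 35 arrays or the sample channel alone, 3 with the scan day block or day 1 arrays only, 4 with either slide block, and 0 to 3 without single replicates. For 162 minus 18 µg of NRCWE-002 on day 1 it was 1 as reported, 0 with all spots in the normexp fit, either slide block, the scan day block or no moderation, 3 without background correction, with median centring, with probes above background on at least 35 arrays, with day 1 arrays only or with the sample channel alone, and 0 to 3 without single replicates. For NRCWE-001 on day 28 it ran from 0 to 1 without single replicates in the F-test, at 162 µg and for 162 minus 18 µg, and was 0 as reported. Over these 6 comparisons of day 1, the share of all genes called also moved: it was 1.96% to 7.89% with slide as a fixed block, 2.65% to 6.41% as a random block, 4.1% to 6.59% with the scan day block, 1.53% to 5.48% with day 1 arrays only, 1.42% to 3.3% with the sample channel alone, 0.714% to 2.04% with the 35-array filter and 0.193% to 1.97% under the other 8 alternatives. The other counts were 0 under every alternative run, and the cause of the differences was not tested. Fits of one day cannot give comparisons between days. No paired analysis was possible by replicate number, because these numbers follow accession order and match no mice, and mice were matched by slide instead, as a block or within slides. Of 60 medians of within-slide differences, 13 moved by more than the SD of the exposed group and 11 had another sign than the reported difference. The Ccr2 ratio is limited by a reference channel near background.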
